A study of Mus musculus with 24 samples.

Results

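Integrins are the adhesion receptors through which cells hold on to other cells and to the surrounding matrix. Each receptor joins an alpha chain and a beta chain, so that the set of chain genes a cell expresses limits which receptors it can assemble. In the thymus, immature T cells move between the cortex and its outer border while they develop, and integrin contacts with stromal cells and matrix are part of that movement. The chain encoded by Itgae, also called CD103, pairs with the beta 7 chain to form a receptor for E-cadherin. Transforming growth factor beta (TGF-beta) is a known inducer of Itgae in T cells.

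The integrin chains described here are 10 genes: Itgae, Itgb7, Itgb4, Itga6, Itga5, Itga4, Itgb1, Itgb2, Itgal and Itgb3. They were chosen by their signals on these arrays: the list was named with the levels and changes of Itgae and its relatives in view, and a gene was followed further where its detection p-values passed a limit. Every probe annotated to them was read. A probe counted as detected on an array where its detection p-value, its rank among the negative-control beads of that array, was under 0.05. Of the 10 genes, 9 had a named probe and 7 had a probe detected on at least 4 of 24 arrays. Those 7 genes are among 8820 genes that passed the same filter, and they had 15 of the 17 integrin probes.

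The arrays profiled thymocytes of C57BL/6J mice with an intact Il7r gene (Il7r+/+), which encodes the interleukin 7 (IL7) receptor. All sorted cells lacked lineage markers and KIT. The DN3 gates required CD25 on the surface, and the DN4 gate required its absence. Small cells with little CD71, the transferrin receptor, were taken as DN3a, whereas DN3b and DN4 were large and rich in CD71. These are successive stages of early T cell development around beta-selection, the checkpoint that follows a productive T cell receptor beta chain. After each of 4 independent sorts, every subset was rested for 1 h and then kept for 3 h either untreated or with 10 ng/ml IL7, a cytokine that signals through STAT5. This gave 6 groups of 4 arrays each, and the small number of arrays limits the precision of every value. The age and sex of the mice and the number pooled per sort were not given in the sources used here.

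Levels are log2 signals after background correction and quantile normalization, and they are compared only within a probe. Arrays of a group correlated at 0.978 to 0.993. Of 10 markers of early T cells, 8 passed the filter, among them Ptcra, Rag1 and Cd3e. Cd4 and Cd8a, which mark later thymocytes, gave signal above background on 0 arrays. A granulocyte and monocyte marker list, of which 7 of 9 genes passed, stood apart in DN4 cells of sorts 2 and 3. Its mean level there was 9.11 and 9.04 untreated, against 4.61 and 5.39 in sorts 1 and 4. The globin gene Hba-a1, the 1 of 6 erythroid markers that passed, was high in sorts 1 and 3 of every group and near background in sorts 2 and 4. For the 7 tested chains, by the probe that stands for each, results that change without those sorts are given beside the value or in the closing section. No such values are given for the other probes or for the genes of the lists, so their dependence on those sorts was not tested. In RNA from a sorted population, fewer cells of a type and less RNA per cell cannot be told apart.

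Detection itself separated the chains. The probes that stand for Itgae, Itgb4, Itga5, Itgb1 and Itgb2 were detected on 24 arrays, that of Itgb7 on 23 and that of Itga6 on 17. Itga4, which encodes the alpha chain of receptors for VCAM-1 and fibronectin, had 1 probe, detected on 0 arrays. Itgb3, the beta chain of the platelet and vitronectin receptors, was detected on 1 array, an IL7-treated DN4 culture. Itgal, the alpha chain of LFA-1, had no named probe and is not analysed here. Just inside the limit of 4 arrays lay the dimmest Itgae probe, at 4 arrays, and just outside it the Itgb3 probe. A probe that is not detected gives only a bound on its level and does not show that the transcript was absent.

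**Figure D1:**
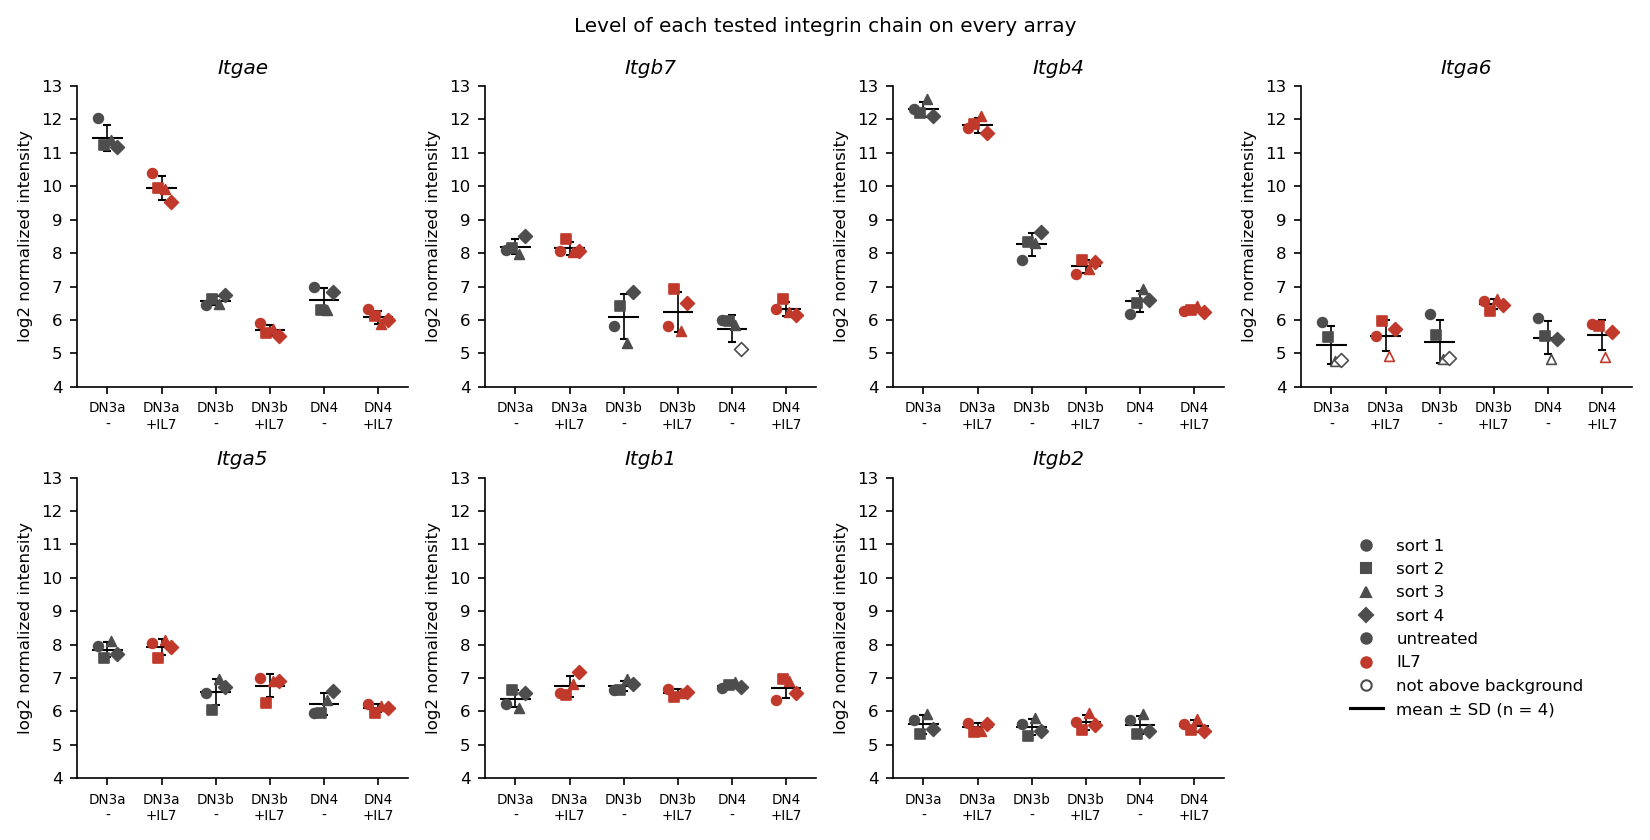
Log2 normalized intensity of the 7 tested integrin chains on each of the 24 arrays, by subset and treatment. Symbols are sorts, open symbols are arrays where the probe was not above background, and bars are the mean ± SD (n = 4). Untreated DN3a cultures lie above all DN3b and DN4 cultures for Itgae, Itgb7, Itgb4 and Itga5.

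4 chains were higher in untreated DN3a cells than in both later subsets. Itgae was 29.3-fold, Itgb4 16.4-fold, Itgb7 4.25-fold and Itga5 2.42-fold lower in untreated DN3b than in untreated DN3a. These folds are of the probe that stands for each gene, after background correction. Itgb1 was slightly higher in DN3b, and Itga6 and Itgb2 did not pass the test. Between DN3a and DN3b, 4 of the 7 tested chains were thus lower and 1 was higher by limma at an adjusted p under 0.05. This comparison called 55.9% of all 8820 genes, 31% lower and 24.9% higher, so that many genes outside the list moved too. The median difference was -1.27 over the 7 chains and -0.03 over all genes. Because the members were listed with the large differences of Itgae and Itgb4 already known, the tests below describe these samples and are no independent evidence for the choice of genes.

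The chains that make the E-cadherin receptor are Itgae and its partner Itgb7. Itgae lay at 12.03, 11.22, 11.38 and 11.18 in sorts 1 to 4 of untreated DN3a. In untreated DN3b it lay at 6.45, 6.64, 6.48 and 6.76, and in untreated DN4 at 6.98, 6.29, 6.31 and 6.83. All 4 DN3a arrays were more than 4 log2 units above every DN3b and DN4 array, whereas DN3b and DN4 overlapped. The difference of DN3b from DN3a was -4.87 ± 0.17 (SE; limma adjusted p = 3.1e-08) and that of DN4 from DN3a was -4.85 ± 0.17 (adjusted p = 1.7e-08). DN4 and DN3b differed by 0.02, with a 95% interval from -0.37 to 0.41.

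Itgb7, which also pairs with the alpha 4 chain in the gut-homing receptor, lay at 8.10, 8.16, 7.98 and 8.50 in untreated DN3a. In untreated DN3b it lay at 5.82, 6.43, 5.31 and 6.83. Untreated DN4 arrays held 5.99, 5.98, 5.84 and 5.14, of which the last was not above background. DN3a again stood above both later subsets with no overlap, but Itgb7 varied more between DN3b sorts (SD 0.67) than Itgae did (SD 0.14). Itgb7 differed by -2.09 ± 0.29 (adjusted p = 0.00013) between DN3b and DN3a and by -2.45 ± 0.29 (adjusted p = 3.5e-05) between DN4 and DN3a. The difference between DN4 and DN3b was -0.36 and did not pass (adjusted p = 0.56, 95% interval -0.998 to 0.27).

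Markers of other cells that can carry Itgae were measured on the same arrays. Of 6 gamma-delta T cell markers, 3 passed the filter (Sox13, Cd163l1 and Blk), and Maf was not detected on any array. Their mean level was 7.65 to 8.19 in untreated DN3a, 6.51 to 7.05 in untreated DN3b and 5.95 to 6.43 in untreated DN4. Of 7 dendritic cell markers, 4 passed (Siglech, Irf8, Cd74 and H2-Ab1), with mean levels of 6.03 to 6.59 in untreated DN3a, 5.88 to 6.13 in DN3b and 5.99 to 6.19 in DN4, ranges that overlap, and Xcr1 was not detected. Of 6 NK and cytotoxic markers, 3 passed (Nkg7, Gzma and Prf1), at 8.47 to 8.55, 7.18 to 7.65 and 6.71 to 6.83 in the same order, and Ncr1 and Gzmb were not detected. The sort took lineage-negative cells, a gate meant to leave out cells of other lineages. Granulocyte and monocyte markers were still high in DN4 cells of sorts 2 and 3. The part of gamma-delta T, dendritic, NK or other cells in the Itgae difference was not tested.

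Itgb4 and Itga6 encode the chains of a laminin receptor best known from the hemidesmosomes of epithelia. For Itgb4, untreated DN3a arrays held 12.32, 12.18, 12.60 and 12.10. Untreated DN3b arrays held 7.79, 8.32, 8.31 and 8.62, and untreated DN4 arrays 6.17, 6.51, 6.93 and 6.61. It was the 1 tested chain that stepped down at both transitions, with no overlap between any pair of subsets. The first step was -4.04 ± 0.15 (adjusted p = 3.3e-08). The second was -1.71 ± 0.15, or 3.26-fold (adjusted p = 0.00026), in a comparison that called 4.02% of genes (2.57% lower) and in which no other tested chain passed. Without sorts 2 and 3, the sorts with granulocyte transcripts, the second step was -1.82 with an adjusted p of 0.056. From DN3a to DN4 the level fell by 5.75 on the log2 scale, or 53.7-fold (adjusted p = 7.2e-09).

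Itga6, the usual partner of the beta 4 chain, did not show the fall seen for Itgb4, but its probe lay near background. Untreated DN3a arrays held 5.93, 5.51, 4.76 and 4.80, untreated DN3b arrays 6.17, 5.54, 4.85 and 4.86, and untreated DN4 arrays 6.05, 5.51, 4.84 and 5.44. The subsets overlapped throughout, and the arrays differed mainly by sort. Sort 1 was the highest and sort 3 was not above background in each of these 3 groups. The probe was detected on 2 of 4 arrays in untreated DN3a and on 2 of 4 in untreated DN3b. A fall below the DN3a level could hardly register, so these values cannot show whether Itga6 fell. The difference between DN3b and DN3a was 0.11 (95% interval -0.16 to 0.37), and that between DN4 and DN3a was 0.21 (95% interval -0.05 to 0.48). DN4 and DN3b differed by 0.11 (adjusted p = 0.70). Itgb1, the other known partner of the alpha 6 chain, was detected on all arrays.

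Itga5 and Itgb1 form the classical fibronectin receptor. Untreated DN3a arrays held 7.96, 7.59, 8.10 and 7.73 for Itga5. The DN3b arrays held 6.57, 6.04, 6.96 and 6.72, and the DN4 arrays 5.96, 5.97, 6.36 and 6.62. DN3a was above both other subsets on every array, while DN3b and DN4 overlapped. Itga5 differed by -1.27 ± 0.14 (adjusted p = 2.4e-05) in DN3b and by -1.62 ± 0.14, or 3.07-fold (adjusted p = 3.5e-06), in DN4. The difference between DN4 and DN3b was -0.35 and was lower in 4 of 4 sorts, but did not pass (adjusted p = 0.22).

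Itgb1, the beta chain shared by many alpha chains, went the other way by a small amount. Levels of 6.21, 6.66, 6.11 and 6.55 were found in untreated DN3a, against 6.66, 6.65, 6.96 and 6.82 in DN3b and 6.70, 6.80, 6.87 and 6.73 in DN4. DN3a sort 2 reached the DN3b range, and every DN4 array was above every DN3a array. The differences were 0.39 ± 0.12 in DN3b (adjusted p = 0.022) and 0.39 ± 0.12 in DN4 (adjusted p = 0.02), and DN4 differed from DN3b by 0.0041. Without sort 3 they were 0.24 (adjusted p = 0.11) and 0.27 (adjusted p = 0.066), and without sorts 1 and 3 they were 0.13 and 0.16. The DN3b call was lost under 7 of 15 alternatives in all and the DN4 call under 4 of 15.

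Itgb2 encodes the beta chain shared by the leukocyte integrins, among them LFA-1 and the myeloid receptor Mac-1. Its level stayed between 5.26 and 5.97 on all 24 arrays, and none of the comparisons called it. The probe was detected on every array but was dim. Its mean intensity in the groups was 122 to 131, against array medians of 93.3 to 119.8. At such signals the offset of the background correction shrinks log2 changes, so the narrow range does not show that the transcript was stable. Untreated DN4 arrays held 5.74, 5.33, 5.91 and 5.43. Sorts 1 and 3 were above sorts 2 and 4 in all 3 untreated groups. Of the untreated DN4 cultures in which granulocyte markers were high, that of sort 2 was the lowest and that of sort 3 the highest of the group for Itgb2. The differences between untreated subsets were -0.09 for DN3b and -0.01 for DN4 against DN3a, and 0.08 for DN4 against DN3b.

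DN4 and DN3a untreated cultures gave the same pattern as DN3b and DN3a, with 4 chains lower and 1 higher in a comparison that called 59.2% of genes, 32.4% lower and 26.8% higher. These comparisons share the untreated DN3a arrays, so they are not independent of each other. Sizes of change depend on the background correction. On the authors' processed values, which lay close to uncorrected intensities, the difference of DN3b from DN3a was -1.28 for Itgb7, -0.81 for Itga5 and 0.20 for Itgb1, and that of DN4 from DN3a was -1.45, -0.98 and 0.20, each still past the threshold. Over 15 alternatives, the difference of DN3b from DN3a ran from -5.02 to -3.72 for Itgae and from -4.23 to -3.67 for Itgb4. That of DN4 from DN3a ran from -5.02 to -3.76 for Itgae and from -5.83 to -4.86 for Itgb4. The smallest Itgae differences, -3.72 and -3.76, came from the dimmer probe ILMN_2628899. The plot of differences between untreated subsets shows the steps by sort.

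**Figure D2:**
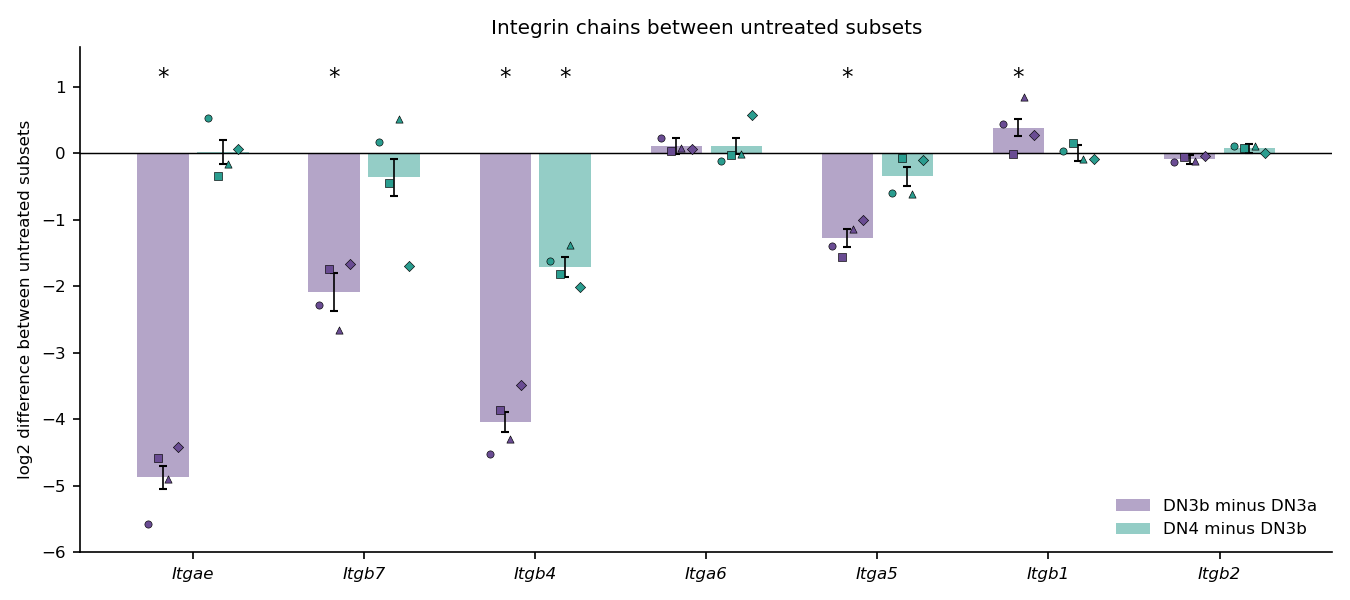
Log2 difference between untreated subsets for the 7 tested chains. Bars are limma estimates with their SE, which is pooled over the 12 untreated arrays and is the same in each comparison for a given chain. Points are the differences within each sort and asterisks mark an adjusted p under 0.05. Itgae, Itgb7, Itgb4 and Itga5 are lower in DN3b than in DN3a in every sort, and Itgb4 alone among these chains passes between DN3b and DN4.

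IL7 lowered Itgae and Itgb4 in DN3a and DN3b cells and raised Itga6 in DN3b cells. In DN3a cells, 2 of the 7 tested chains were lower and 0 were higher, in a comparison that called 21% of all genes, 11.5% lower and 9.44% higher. In DN3b cells 2 were lower and 1 was higher, where 9.81% of genes were called (5.01% lower and 4.8% higher). In DN4 cells 1 was lower, where 2.44% were called and 0.578% were lower. The medians over the 7 chains were -0.04, 0.14 and -0.08 in DN3a, DN3b and DN4, close to the medians over all genes of -0.03, -0.01 and -0.01.

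Itgae in IL7-treated DN3a cultures lay at 10.39, 9.95, 9.92 and 9.52, below every untreated DN3a array. The change was -1.51 ± 0.12, a 2.84-fold decrease (limma adjusted p = 2.5e-06), and in the 4 sorts it was -1.64, -1.27, -1.45 and -1.65. In DN3b cells IL7-treated arrays held 5.90, 5.62, 5.74 and 5.51, also below every untreated array, and the change was -0.89 ± 0.12 (adjusted p = 0.00031), against -0.41 on the authors' processed values (adjusted p = 0.00022). In DN4 cells they held 6.33, 6.12, 5.89 and 5.99 and overlapped the untreated range. The DN4 change was -0.52 ± 0.12, was negative in 4 of 4 sorts and passed only just (adjusted p = 0.042), against -0.26 on the authors' values (adjusted p = 0.045). That DN4 call was lost under 13 of 16 alternatives, among them each fit without 1 sort, in which the adjusted p lay between 0.06 and 0.22.

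The IL7 change of Itgae was weaker in DN4 than in DN3a by 0.98 ± 0.17 on the log2 scale (adjusted p = 0.0061), in a test of the difference itself that called 5.36% of genes (2.63% in the positive direction). No other tested chain passed that test: the differences of DN4 from DN3a were 0.64 for Itgb7 (adjusted p = 0.10), -0.46 for Itgb1 (adjusted p = 0.19), and -0.20 to 0.23 for Itgb4, Itga5, Itga6 and Itgb2. The difference was 0.97 without sort 3 (adjusted p = 0.054), 0.90 without sorts 2 and 3 (adjusted p = 0.26) and 0.96 without sorts 1 and 3 (adjusted p = 0.20). The change in DN3b was weaker than in DN3a by 0.62 ± 0.17, which did not pass (adjusted p = 0.097), and 0 of the 7 chains passed where 1.7% of genes were called. Among the other chains, Itgb1 differed there by -0.59 (adjusted p = 0.13), and Itgb4, Itgb7, Itga5 and Itgb2 by -0.18 to 0.23. DN4 and DN3b differed by 0.37 (adjusted p = 0.54), and 0 of the 7 chains passed there as well, against 0.306% of all genes. For Itgb7 and Itgb4 that difference was 0.46 and 0.40, and for Itga5, Itgb1 and Itgb2 it was -0.31 to 0.14. In limma at an unadjusted p under 0.05, 3 of the 7 chains would pass in each of these 3 comparisons. The share of all genes at that limit was not counted, so this gives no comparison with other genes. Itgae was near the low end of the scale in DN3b and DN4, where the added offset of the background correction shrinks log2 changes. The gamma-delta marker list also moved with IL7 in DN3a, to mean levels of 7.05 to 7.51. The early T cell list moved down there too, from 10.17 to 10.41 untreated to 9.74 to 10.06 treated. The NK and cytotoxic list did not, at 8.47 to 8.55 untreated and 8.55 to 8.74 treated. The part of any cell type in the Itgae change was not tested.

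**Figure D3:**
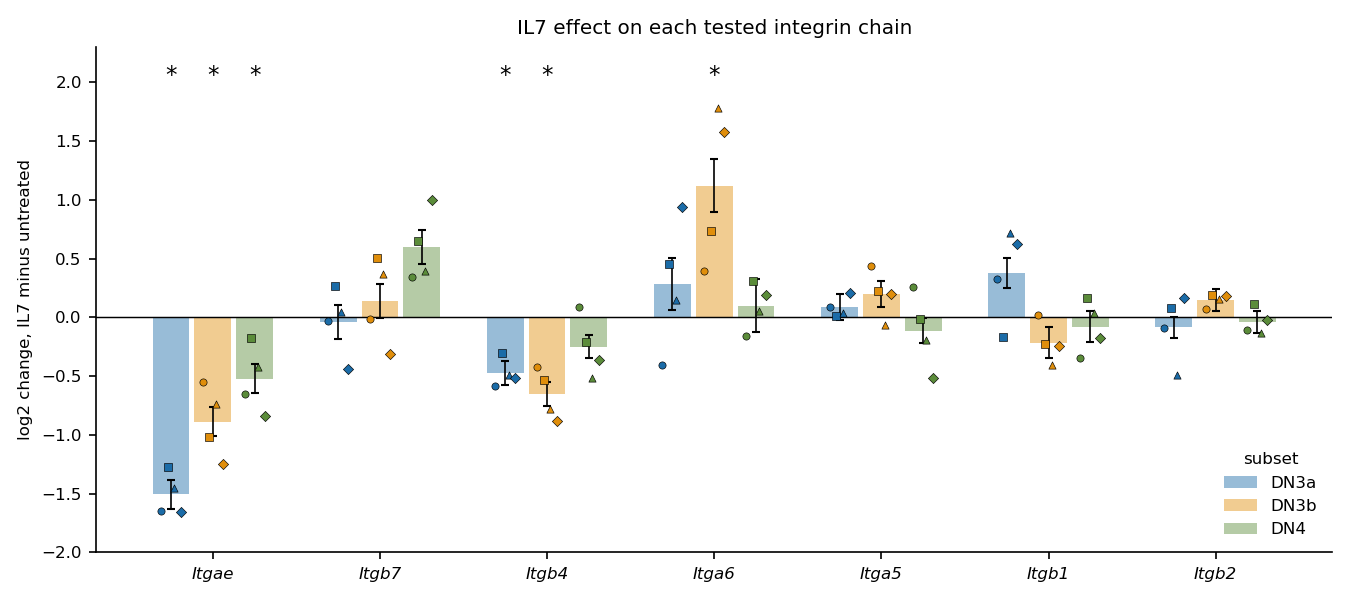
Log2 change with IL7 for the 7 tested chains in DN3a, DN3b and DN4. Bars are limma estimates with their SE, which is pooled over all 24 arrays and is the same in each subset for a given chain. Points are the changes within each sort and asterisks mark an adjusted p under 0.05. Itgae is lower in every sort of every subset, and Itga6 in DN3b rises most in sorts 3 and 4.

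Itgb7, the partner of Itgae, did not fall with IL7. In DN3a cells treated arrays held 8.07, 8.43, 8.02 and 8.06, within the untreated range, and the change was -0.04 (95% interval -0.36 to 0.28). In DN3b cells they held 5.81, 6.93, 5.68 and 6.52, and the change was 0.14 (95% interval -0.18 to 0.45). In DN4 cells they held 6.33, 6.63, 6.23 and 6.14, above every untreated DN4 array. The DN4 change was 0.60 ± 0.15 and positive in 4 of 4 sorts, with sort 4 at 1.0 from an untreated level not above background. It missed the threshold (adjusted p = 0.052) and passed it where detection on at least 12 arrays was required (adjusted p = 0.042).

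Itgb4 in IL7-treated DN3a cultures lay at 11.73, 11.87, 12.11 and 11.59. The highest of these touched the lowest untreated array, and within each sort the treated culture was lower. The change was -0.48 ± 0.10 (adjusted p = 0.0046). It did not pass without the pairing of cultures (adjusted p = 0.075), without sorts 2 and 3 (0.11) or without sorts 1 and 3 (0.10). In DN3b cells the treated arrays held 7.37, 7.79, 7.53 and 7.74, just below the untreated range, and the change was -0.65 ± 0.10 (adjusted p = 0.00077), with an adjusted p of 0.10 without sorts 2 and 3. In DN4 cells they held 6.26, 6.30, 6.42 and 6.24, inside the untreated range, and the change of -0.25 did not pass (adjusted p = 0.35).

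Itga6 in IL7-treated DN3b cultures lay at 6.56, 6.27, 6.63 and 6.44, detected on all 4 arrays and above every untreated DN3b array. The change was 1.12 ± 0.22, or 2.17-fold (adjusted p = 0.0054), against 0.48 on the authors' processed values (adjusted p = 0.00014). Within sorts 1 to 4 it was 0.39, 0.73, 1.78 and 1.57. In sorts 3 and 4 the untreated arrays were not above background, so that these 2 changes start from a bound. Without sort 3 the change was 0.90 (adjusted p = 0.065), and without sorts 2 and 3 it was 0.98 (adjusted p = 0.26). Treated DN3a arrays held 5.53, 5.96, 4.91 and 5.74 and treated DN4 arrays 5.89, 5.82, 4.90 and 5.63, both overlapping their untreated groups. The changes there were 0.28 (adjusted p = 0.42) and 0.10 (adjusted p = 0.94). The difference from the DN3b change did not pass for DN3a (0.84, adjusted p = 0.22) or for DN4 (-1.02, adjusted p = 0.25).

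Itga5, Itgb1 and Itgb2 passed no test of IL7. Itga5 changed by 0.09 in DN3a, 0.20 in DN3b and -0.11 in DN4, with SEs of 0.11. Itgb1 in treated DN3a cultures lay at 6.54, 6.49, 6.83 and 7.17, higher than untreated in 3 of 4 sorts, and the change was 0.38 ± 0.13 (adjusted p = 0.057). Without sort 2 it was 0.56 (adjusted p = 0.012). Itgb1 changed by -0.21 in DN3b and -0.08 in DN4. The Itgb2 changes were -0.09, 0.15 and -0.04, with SEs of 0.09.

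Several chains had more than 1 probe, and their probes did not always give the same call. In the fit in which every kept probe was tested on its own, 18.9% of 12939 probes were called for IL7 in DN3a, 8.48% in DN3b and 1.9% in DN4. Itgae had 6 kept probes, of which 3 are annotated to NM_008399 and 3 to NM_172944, a transcript record that the RefSeq gene table used here does not list for Itgae. All 6 were brightest in untreated DN3a and all 6 were called lower there with IL7, by 0.46 to 1.51 on the log2 scale. In DN3b only ILMN_1217629 and ILMN_2699898 were called, at -0.89 and -1.04, while the other 4 probes changed by -0.28 to 0.00. In DN4 0 of the 6 were called, and the changes of ILMN_1217629 and ILMN_2699898 were -0.52 (adjusted p = 0.052) and -0.78 (adjusted p = 0.072). ILMN_1249573 and ILMN_2656090 had changes of 0.11 and 0.13 in DN4, of the opposite sign. At an unadjusted p under 0.05 in limma, the DN4 changes of 2 of the 6, ILMN_1217629 and ILMN_2699898, would pass. The share of all probes at that limit was not counted.

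The 4 dimmer Itgae probes were detected on 0 or 1 of the 4 arrays of each DN3b and DN4 group, and passed the filter through their DN3a arrays. Their differences between subsets therefore follow in part from the filter and are given as a description. ILMN_2628899 was detected on 8 arrays, all of DN3a, and its level in untreated DN3a was at least 8.29-fold that in DN3b and at least 8.16-fold that in DN4. For such a bound, the mean of the bright group was divided by the lowest signal detected on each array, or by the probe's own signal where that was higher. ILMN_1249573 was at least 2.34-fold and ILMN_2656090 at least 1.26-fold higher in untreated DN3a than in untreated DN4. The bright probe ILMN_2699898 gave 11.47, 11.09, 11.01 and 10.90 in untreated DN3a cultures, and 10.19, 9.93, 9.41 and 9.39 in the treated ones. The IL7 change was weaker in DN3b than in DN3a for 2 of the 6 probes, where 1.38% of probes were called, and both are dim outside DN3a. For the weaker change in DN4 than in DN3a, 4 of the 6 probes passed, where 4.44% of probes were called. Of these 4, ILMN_1249573, ILMN_2628900 and ILMN_2628899 are among the probes near background in DN4, where a fall could not register, and ILMN_1217629 alone was detected on all DN4 arrays. ILMN_2699898 gave 0.60 (adjusted p = 0.27) and ILMN_2656090 gave 0.59 (adjusted p = 0.13).

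**Figure D4:**
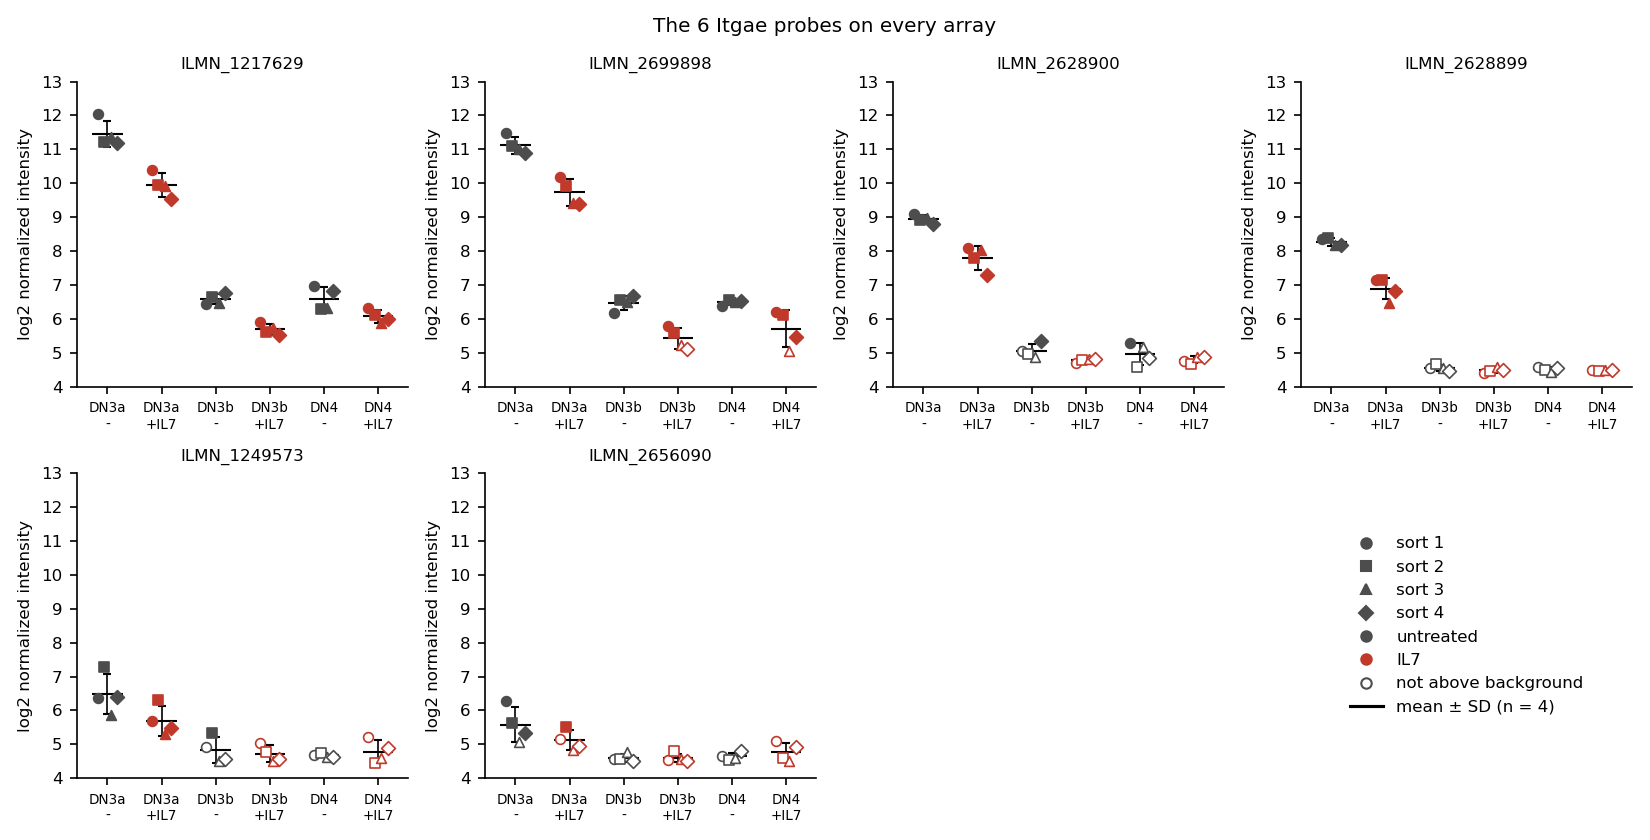
Log2 normalized intensity of the 6 Itgae probes on each of the 24 arrays. Symbols are sorts, open symbols are arrays where the probe was not above background, and bars are the mean ± SD (n = 4). All 6 probes are highest in untreated DN3a, and the 4 dimmer probes lie at or near background in DN3b and DN4.

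For Itgb4, the second probe ILMN_2634689 gave -0.50 with IL7 in DN3a (adjusted p = 0.003), -0.34 in DN3b (adjusted p = 0.048) and -0.09 in DN4 (adjusted p = 0.85). It also fell from DN3b to DN4, by 1.46 on the log2 scale (adjusted p = 0.00071), where 3.06% of probes were called. The second Itga5 probe, ILMN_2670172, was detected on 10 arrays, 8 of them of DN3a. It passed the filter through those DN3a arrays. Its differences from DN3a therefore follow in part from the filter and are given as a description. It was at least 1.51-fold lower in untreated DN3b, where it was detected on 0 arrays, than in untreated DN3a (adjusted p = 0.0018), in a comparison that called 54.4% of probes. In untreated DN4, where it was detected on 1 of 4 arrays, it differed by -0.85 (adjusted p = 0.002), and 57.9% of probes were called. The second Itgb1 probe, ILMN_2789077, was detected on 9 arrays and passed in none of the comparisons. Its differences from DN3a were 0.26 in DN3b and 0.02 in DN4. The probes of a gene correlated over the 24 arrays at 0.83 to 0.99 for Itgae, 0.997 for Itgb4 and 0.86 for Itga5, and at 0.28 for Itgb1, after the mean of each sort was removed.

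Over the same 24 arrays, the levels of Itgae, Itgb7, Itgb4 and Itga5 moved together, with Pearson correlations between 0.86 and 0.97 once sort means were removed. The correlations of Itga6, Itgb1 and Itgb2 with each other and with those 4 chains lay between -0.44 and 0.44. The 24 arrays fall into 3 subsets, which sets most of these values, and they are given as a description. When all tested genes were ranked by their correlation with a chain, clone and predicted-gene names were passed over. The genes most like Itgae were Itpr3, an intracellular calcium channel (0.994), Ypel3 (0.993) and the neuropeptide gene Gal (0.992). Those most like Itgb7 were Rasl10a (0.962), Ocrl (0.961) and Lcn4 (0.959). Those most like Itgb4 were the zinc transporter gene Slc39a4 (0.994), S100a11 (0.993) and the receptor gene Notch3 (0.993).

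Itgb7 and Itga5, which both fell from DN3a to DN3b and both lie on chromosome 15, are shown here with their promoters. Their levels correlated at 0.86, the lowest value among the pairs of falling chains. RefSeq promoter windows on GRCm38.p6, each from 250 bases before to 50 after the start, matched 4 of the 10 genes. The Itgb7 window is chr15:102231886-102232185 and the Itga5 window is chr15:103366742-103367041, both on the minus strand. Capitals mark matches to 4 motifs searched on both strands, which were TTCNNNGAA for STAT factors, TGTGGT for RUNX, CAGCTG for E proteins and TGGGAA for the Notch partner CSL.
Itgb7: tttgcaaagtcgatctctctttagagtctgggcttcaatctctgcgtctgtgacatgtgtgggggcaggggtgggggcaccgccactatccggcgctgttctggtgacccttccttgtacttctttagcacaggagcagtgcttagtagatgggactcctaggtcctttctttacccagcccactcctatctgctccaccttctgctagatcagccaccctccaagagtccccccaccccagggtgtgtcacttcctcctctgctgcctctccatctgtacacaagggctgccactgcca
Itga5: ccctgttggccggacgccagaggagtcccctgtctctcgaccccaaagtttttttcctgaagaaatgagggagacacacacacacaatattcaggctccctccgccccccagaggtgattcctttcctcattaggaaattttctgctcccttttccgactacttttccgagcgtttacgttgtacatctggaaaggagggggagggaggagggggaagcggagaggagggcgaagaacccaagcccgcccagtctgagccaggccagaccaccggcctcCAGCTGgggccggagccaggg
The Itga5 window held 1 CAGCTG, a motif found in 16.3% of 32851 promoters of this length, and the Itgb7 window held no match to any of the 4. The other motifs occur in 8.3% (TTCNNNGAA), 16.8% (TGTGGT) and 25.6% (TGGGAA) of promoters. These letters are a description of the windows and show no binding.

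Other genes of integrin biology were followed as lists. Of 16 other integrin chain genes, 14 had a named probe and 3 passed the filter, namely Itga2b, Itgad and Itgav, and none of the 3 was called in any of the 9 comparisons. Their medians for IL7 were -0.16, 0.16 and -0.04 in DN3a, DN3b and DN4. At an unadjusted p under 0.05 in limma, Itgad would pass in DN3a (-0.32) and in the difference between DN3b and DN3a (0.48). The share of all genes at that limit was not counted.

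Genes that promote or restrain the switch of integrins to their active state, or carry their signal, were compared between untreated subsets. Because the list mixes both, its counts give no direction of integrin activity. Of 23 activation and adaptor genes, 18 were tested, and 8 were lower and 0 higher in untreated DN3b than in DN3a, where 31% of all genes were lower and 24.9% higher, with a median of -0.30. The 8 included Rapgef3, an exchange factor for the integrin-activating GTPase Rap1 (-1.01), the kindlin gene Fermt3 (-0.91), the cytohesin gene Cyth1 (-0.87) and Sipa1 (-0.80), which encodes a GTPase-activating protein for Rap1. Of 13 tested focal adhesion genes, 8 were lower and 2 higher, with a median of -0.35. Zyx, encoding the adaptor zyxin, differed by -1.80, paxillin gene Pxn by -0.99 and alpha-actinin gene Actn1 by -0.77. Untreated DN4 against DN3a gave 8 lower and 2 higher activation genes and 7 lower and 2 higher focal adhesion genes, where 32.4% of all genes were lower and 26.8% higher.

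With IL7, 4 of the 18 activation genes were called in DN3a, 3 in DN3b and 2 in DN4, where 21%, 9.81% and 2.44% of all genes were called. Rasgrp1, an exchange factor for Ras, rose in all 3 subsets, by 1.32 in DN3a, 1.10 in DN3b and 0.82 in DN4. Rapgef3 fell in all 3, by 0.64, 0.90 and 0.65 on the log2 scale. Apbb1ip, which encodes the Rap1 effector RIAM, fell in DN3a and DN3b, by 0.42 and 0.50. The remaining call among the activation genes was Fyb, which fell by 0.32 in DN3a. Among the focal adhesion genes 1 was called, Actn1, at -0.42 in DN3a and -0.26 in DN3b.

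Of 14 ligand genes, 11 had a named probe and 3 were tested. Cdh1, which encodes E-cadherin, the ligand of the Itgae and Itgb7 receptor, was lower in both later subsets. It differed by -2.32 in untreated DN3b (adjusted p = 1.2e-06) and by -3.01 in untreated DN4 (adjusted p = 1.5e-07) from DN3a. Cdh1 was also lower in DN4 than in DN3b, by 0.69 on the log2 scale (adjusted p = 0.045), where Itgae differed by 0.02. IL7 raised Cdh1 by 0.70 in DN3b (adjusted p = 9.5e-05), where Itgae fell, and by 1.13 in DN4 (adjusted p = 2.7e-06). In DN3a, where Itgae fell most with IL7, Cdh1 was not called. Both IL7 changes of Cdh1 exceeded that in DN3a, by 0.67 (adjusted p = 0.011) and 1.10 (adjusted p = 0.00017). Icam1, a ligand of LFA-1, was lower in untreated DN3b (-1.44) and Icam2, another, was higher (0.86).

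Of 15 TGF-beta pathway genes, 12 were tested. The list holds genes that carry the signal and genes that restrain it, so its counts give no direction of signalling. In untreated DN3b 10 were lower than in DN3a and 1, Smad3, was higher (0.49), with a median of -0.69, where 31% of all genes were lower and 24.9% higher. Smad3 was named after its value was seen, as the 1 exception in direction. The ligand gene Tgfb3 differed by -1.72, and the receptor genes Tgfbr2, Tgfbr3 and Tgfbr1 by -1.64, -1.36 and -1.28. Untreated DN4 also had 10 lower and 1 higher, where 32.4% and 26.8% of all genes were. With IL7 in DN3a, Tgif1 (-0.64), Smad3 (-0.44) and Tgfbr2 (-0.38) fell and Runx1 (0.48) rose, and Runx1 rose in DN3b (0.95) and DN4 (0.76) as well. In DN3b Tgif1 fell by 0.96 on the log2 scale.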

How the data were processed

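RNA of 24 thymocyte cultures was measured on Illumina mouse Ref8v2 beadchips. Per the file headers, the deposited scanner table holds a linear intensity and a detection p-value for each of 25697 probes per array, and each p-value column was read with the intensity column before it. Array median intensities ran from 93.3 to 119.8, so the table was not normalized. Per the submitters' processing notes and design text, GenomeStudio 2011.1 and R Bioconductor 2.13.0 were used. A second deposited table holds the authors' log2 values, which all had a median of 6.734 and lay within 0.084 of the log2 of quantile-normalized, uncorrected intensities. All per-sample columns were mapped, and 0 were left out.

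Intensities were corrected with neqc in limma 3.58.1 (R 4.3.3), with negative controls inferred from the detection p-values and an offset of 16, which compresses changes of dim probes. Gene symbols came from the platform annotation, updated by gene identifier: 23978 probes had 1 symbol, 0 several and 1719 none. Probes detected at p under 0.05 on at least 4 arrays were kept (12939, of which 12158 were named), and the kept probe with the highest mean stood for each of 8820 genes. Named genes are the members and, by rule, up to 4 called genes of each list with the largest changes in a comparison. Members, lists and tests were chosen with earlier results of these data known.

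IL7 effects and their differences were fitted over 24 arrays with the 12 culture pairs as blocks, and untreated subsets over 12 arrays with the 4 sorts as blocks. P-values were adjusted by Benjamini-Hochberg over all genes, with a threshold of 0.05. The design text names paired tests. It also mentions technical replicates but no arrays, and the 4 sorts are taken as independent, as labelled. Deviations from group means correlated at 0.238 or more within every culture pair (median 0.465), and all 24 arrays were most like an array of their own sort. No arrays held identical values. The fit was tested on simulated data. In all, 16 alternatives were run.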

Additional observations from a re-analysis of the deposited data

Results flagged for a closer look

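In 63 sets of 4 values, which were levels in a group or within-sort changes, 2 held a value far from the other 3, at a limit that chance passes in about 1 of 20 sets. Itgb7 in IL7-treated DN3a was 8.43 in sort 2, against 8.02 to 8.07 in the others. Itga5 in IL7-treated DN3b was 6.27 in sort 2, against 6.90 to 7.0 in the others. The IL7 change of Itgae differed between DN4 and DN3a by 0.98 on the log2 scale by the test of the difference itself (limma adjusted p = 0.0061). The change was negative in 4 of 4 sorts of both subsets. The call of a difference was lost under 4 of 15 alternatives. With every probe fitted on its own, the bright probe ILMN_2699898 gave a difference of 0.60 (limma adjusted p = 0.27).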

How the results depend on the processing

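The fall of Itgae with IL7 in DN3a and the lower untreated levels of Itgae, Itgb4, Itgb7 and Itga5 in DN3b and DN4 than in DN3a kept their direction and passed under every alternative run. The slide could not be used as a block because the files name no slides. Among the 7 chains, the number called for IL7 in DN3a went from 2 to 1 with no replicate block, without sorts 2 and 3 and without sorts 1 and 3. It was 3, with Itgb1 added, without background correction, with the authors' values, with detection on at least 12 arrays and without replicate 2. In DN3b it went from 3 to 1 without sorts 2 and 3. In DN4 it went from 1 to 0 under median scaling, no filter on dim probes, no replicate block, sorts as the block, separate fits of 8 arrays, every probe on its own, the probe with the highest F statistic, without sorts 2 and 3, without sorts 1 and 3, and in each fit without 1 replicate (lowest 0, highest 0). It was 2 with detection on at least 12 arrays. For the difference between DN3b and DN3a it went from 0 to 1 without background correction, with the authors' log2 values and with the highest F statistic. Between DN4 and DN3a it was 2 without background correction and with the authors' values, and 0 with no replicate block, without sorts 2 and 3 and without sorts 1 and 3, with 0 to 1 when 1 replicate was left out. Between untreated DN4 and DN3b it went from 1 to 0 without sorts 2 and 3. Fits over 2 sorts hold fewer samples, and for the other changes the cause was not tested. The replicate block was the main design. Without it, Itgae still fell with IL7 in DN3a, and the DN4 change of -0.52 had an adjusted p of 0.44.

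All values that changed sign were small and uncalled. For IL7 in DN3a, Itgb2 was 0.036 without sorts 2 and 3, 0.12 without sorts 1 and 3 and -0.17 to 0.05 with 1 replicate left out, and Itgb7 was -0.141 to 0.092 with 1 replicate left out. In DN3b Itgb7 was -0.16 without sorts 2 and 3. In DN4 Itgb2 was 0.046 without sorts 1 and 3, and with 1 replicate left out Itga5 was -0.238 to 0.019 and Itgb1 -0.160 to 0.0087. Between untreated DN4 and DN3b, Itgae was -0.040 with the highest F statistic, -0.14 without sorts 1 and 3 and -0.15 to 0.14 with 1 replicate left out. There, with 1 replicate left out, Itgb7 was -0.657 to 0.081, Itga6 -0.049 to 0.182 and Itgb1 -0.045 to 0.035, and Itgb1 was -0.023 without sorts 2 and 3. The probe with the highest F statistic for Itgae was ILMN_2628899, dark outside DN3a, which gave -0.08 for IL7 in DN3b (adjusted p = 0.67). Signal over background limits Itga6, Itgb2, Itgb7 in DN4, and the dim Itgae probes.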
